A study of Rattus norvegicus with 30 samples.

Results

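Gene expression in the lungs of 3 rats with severe acute pancreatitis (SAP) that had been treated with dexamethasone (the DEX-24h group) was compared with that in the lungs of 3 sham-operated rats (Sham-24h). These are 6 of the 30 RNA-seq libraries of the study, chosen by their group labels alone. Each library is taken as 1 rat, although the labels do not say so outright. The p-values measure the spread between libraries within the groups, over all 30 libraries in 1 fit. All genes with enough reads for a test, 15934 of the 22914 counted, enter the comparison. It asks which genes stood off the sham level in the treated rats 24 hours after the operation. All rats were male Sprague Dawley rats 8 weeks old. In Sham-24h the pancreas was only turned slightly, saline was given intravenously and 0.5% carboxymethylcellulose sodium was put into the stomach. In DEX-24h the biliopancreatic duct was infused with 5.0% sodium taurocholate, a bile salt that starts pancreatitis; DEX, a synthetic glucocorticoid, was injected intravenously at 10 mg/kg at 2 and 12 hours, and the same cellulose was put into the stomach. The groups therefore differ by the duct infusion, taurocholate and DEX together, and these cannot be told apart in this comparison. Other groups are used only beside it: SAP-24h (taurocholate without drug), Con-24h (saline infused into the duct), Emo-24h (taurocholate with emodin), and DEX-6h and Sham-6h, which were taken at 6 hours, when 1 dose of DEX had been given.

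Severe pancreatitis releases enzymes and cytokines into the blood that reach the lung capillaries, where neutrophils adhere and the barrier between blood and air becomes leaky. Glucocorticoids bind the glucocorticoid receptor (Nr3c1), which moves into the nucleus, switches on genes such as Fkbp5, Dusp1 and Sgk1 and holds down many inflammatory genes. They also drive lymphocytes out of the circulation or into cell death and lower the number of dendritic cells, so that in a lung homogenate both the activity of cells and the number of cells can move.

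Each library held between 26840953 and 33095751 reads on genes. Mitochondrial genes took 5.00% to 6.07% of the reads, and ribosomal protein genes took 3.99% to 4.74% in DEX-24h and 4.90% to 5.13% in Sham-24h. Between rats of 1 group the chi-square of the counts per degree of freedom was 46.1 to 77.2, so no 2 libraries agreed within counting error. The defining lung genes were high in every library: Sftpc, a surfactant protein of alveolar type 2 cells, was at 12733, 15112 and 20612 FPKM in DEX-24h and 24378, 22234 and 17539 FPKM in the Sham-24h rats. Sham-24h replicate 3 stood apart in S100a8, a gene of blood neutrophils, which was at 578, 81.2 and 4662 FPKM in the 3 Sham-24h rats against 1205, 533 and 1568 FPKM in DEX-24h. Its haemoglobin gene Hbb was high as well, with 129.7, 187 and 1381 FPKM in Sham-24h and 427, 656 and 367 FPKM in DEX-24h. The red blood cell genes summed to 1614, 1677 and 1366 FPKM in DEX-24h and 498, 680.0 and 3864 FPKM in Sham-24h, so each treated rat was above Sham-24h replicates 1 and 2 and below replicate 3. In the sequencing summary of the study, unique tags, whether distinct or uniquely placed reads is not stated, were a smaller share of the reads in each DEX-24h library than in each Sham-24h library, and the part of this in the results was not tested.

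Of the 15934 genes tested, 662 (4.15%) were called, which means an adjusted p below 0.05 together with a difference of 2-fold or more between DEX-24h and Sham-24h. The down-regulated genes outnumbered the up-regulated ones, with 504 genes (3.16%) lower and 158 genes (0.992%) higher in DEX-24h. Protein-coding genes made up 496 of the lower and 151 of the higher genes, and lincRNAs 7 and 4. The median of all tested genes was -0.01 on the log2 scale, near 0 as the scaling of the libraries sets it. The lower genes had a median log2 fold change of -1.81 and the higher genes one of 1.53, and 68 of the lower (13.5%) and 17 of the higher genes (10.8%) changed at least 8-fold. The lower genes were scarce transcripts on the whole: their median fell from 2.81 FPKM in Sham-24h to 0.737 FPKM in DEX-24h, whereas the higher genes had medians of 4.49 and 12.0 FPKM. FPKM is reads per length of gene and depth of library, so these levels are per length. In 493 of the 504 lower genes every DEX-24h rat was below every Sham-24h rat, and in 156 of the 158 higher genes every DEX-24h rat was above, beside 15.9% and 10.2% of all tested genes. Of the lower genes 178, and of the higher genes 48, were called in all 6 fits that left out 1 rat; these fits called 304 genes without Sham-24h replicate 1, 339 without DEX-24h replicate 3 and 453 to 673 without each of the others.

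**Figure D1:**
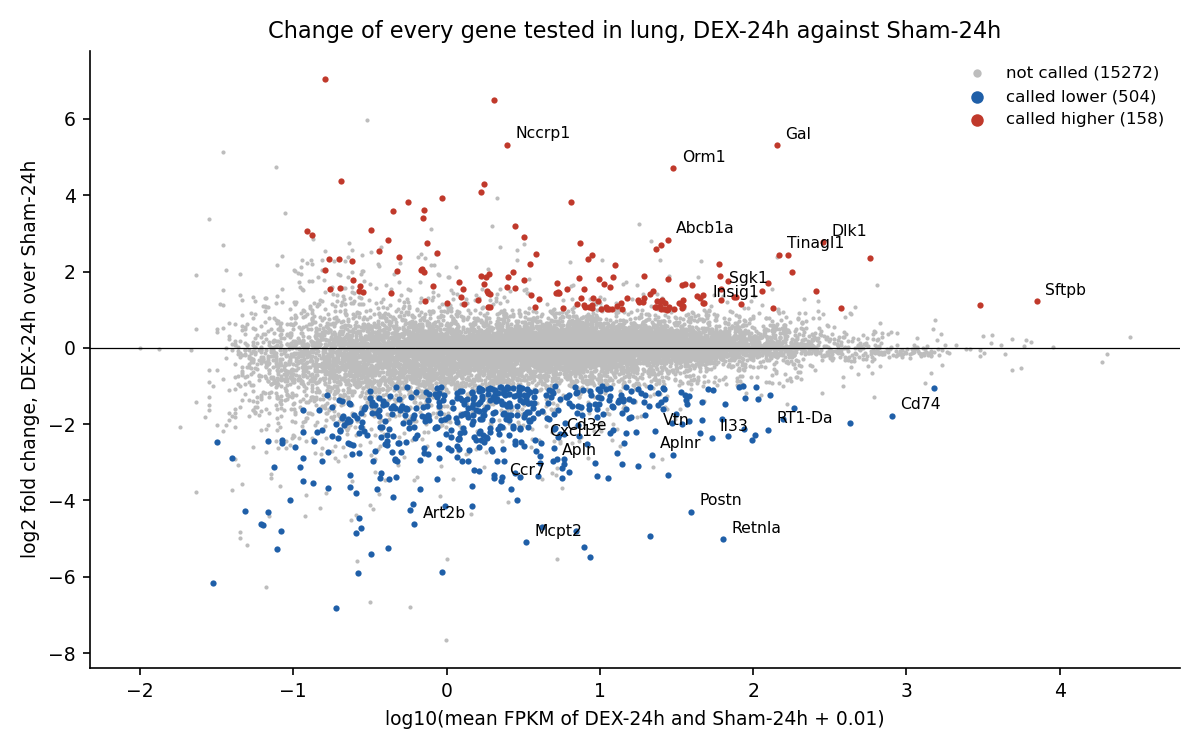
Each point is 1 of the 15934 genes tested, with the log10 of its mean FPKM in both groups (plus 0.01) on the x axis and its log2 fold change, DEX-24h over Sham-24h, on the y axis. The 504 genes called lower (blue) outnumber the 158 called higher (red), the furthest of each lie at -6.82 and 7.05, and genes named in the text are labelled.

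Changes were ranked among protein-coding genes with a symbol, a mean of 1 FPKM or more in either group and no overlap between the groups. The largest increases there were those of Nccrp1, Gal and Orm1. Galanin (Gal), a neuropeptide, was at 199.6, 415 and 218 FPKM in DEX-24h and 0.74, 15.5 and 5.09 FPKM in the Sham-24h rats. All DEX-24h rats were far above all Sham-24h rats, although the sham rats themselves spread widely (log2 fold change 5.31, SE 1.28, adjusted p = 0.012). The call was lost without either of 2 sham rats (4.79, adjusted p = 0.0712, without Sham-24h replicate 1 and 5.15, adjusted p = 0.0553, without Sham-24h replicate 3). Orm1, which encodes the acute-phase plasma protein orosomucoid, was at 61.5, 58.1 and 54.9 FPKM in DEX-24h and 2.77, 1.81 and 2.25 FPKM in the Sham-24h rats. These were tight groups that did not overlap (log2 fold change 4.72, SE 0.70, adjusted p = 0.000341). A2m, the protease inhibitor alpha-2-macroglobulin, which is a major acute-phase protein of the rat, rose from a low level (3.81, SE 0.80, adjusted p = 0.00465). Tac4, a tachykinin gene, was at 2.48, 3.41 and 9.11 FPKM in DEX-24h and 0.92, 0.33 and 0.43 FPKM in the Sham-24h rats, with the highest value in DEX-24h replicate 3 (log2 fold change 3.19, SE 0.57, adjusted p = 0.00139).

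Further named genes rose as well. Abcb1a, the P-glycoprotein pump that exports drugs and steroids from cells, was at 65.8, 32.5 and 47.5 FPKM in DEX-24h and 6.25, 9.30 and 5.36 FPKM in the Sham-24h rats. Every treated rat was above every sham rat (log2 fold change 2.83, SE 0.47, adjusted p = 0.000745). Dlk1, a membrane protein of the Notch ligand type found on precursor cells, was at 377, 588 and 529 FPKM in DEX-24h and 41.9, 77.1 and 105 FPKM in the Sham-24h rats, so that it was one of the more abundant of the changed transcripts (log2 fold change 2.77, SE 0.54, adjusted p = 0.00296). Tinagl1, a secreted glycoprotein of the matrix, was at 284, 228 and 231 FPKM in DEX-24h and 40.7, 55.8 and 43.3 FPKM in the Sham-24h rats (log2 fold change 2.44, SE 0.31, adjusted p = 0.000117). The receptor phosphatase Ptprk had the smallest adjusted p of the higher genes (log2 fold change 1.50, SE 0.18, adjusted p = 7.11e-05), and the amino acid transporter Slc38a2 rose with it (1.17, SE 0.17, adjusted p = 0.000332). Each of Abcb1a, Dlk1, Tinagl1, Ptprk and Slc38a2 was called in every fit that left out 1 rat.

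Other genes among the 12 largest increases, counted within the limits given above on type, symbol, level and overlap, were at low levels. Nccrp1 rose from 0.12 ± 0.046 to 4.83 ± 3.89 FPKM (mean ± SD, n = 3), the secretoglobin Scgb2a1 from 0.187 ± 0.281 to 3.14 ± 0.56 FPKM and the cytochrome P450 gene Cyp2c22 from 0.117 ± 0.127 to 1.73 ± 0.396 FPKM, with log2 fold changes of 5.33, 4.09 and 3.93. These 3 were called whichever rat was left out. For the remaining ones the call depended on single rats. Il22ra2, the soluble receptor that traps interleukin 22, had a log2 fold change of 2.92, and 2.87, adjusted p = 0.0782, without Sham-24h replicate 1 and 2.51, adjusted p = 0.0646, without Sham-24h replicate 2. Ptprn, a membrane protein of dense-core secretory vesicles, was at 2.76, and 2.38, adjusted p = 0.0751, without DEX-24h replicate 3; 2.95, adjusted p = 0.0547, without Sham-24h replicate 1; 2.65, adjusted p = 0.051, without Sham-24h replicate 2. S100a7a, at 3.42, kept its call only without DEX-24h replicate 1, and was at 2.86 to 4.04 in the other fits.

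Among the lower genes, periostin (Postn), a matrix protein that binds collagen and integrins, had the smallest adjusted p of all genes. It was at 3.94, 4.62 and 2.55 FPKM in DEX-24h and 76.96, 99.2 and 47.8 FPKM in the Sham-24h rats. Every DEX-24h rat was far below the lowest Sham-24h rat (log2 fold change -4.29, SE 0.45, adjusted p = 2.09e-05). Retnla, a resistin-like protein secreted in the lung during type 2 immune responses, was at 1.13, 7.52 and 2.61 FPKM in DEX-24h and 138, 183 and 52.9 FPKM in the Sham-24h rats (log2 fold change -5.02, SE 0.89, adjusted p = 0.00134). Vitronectin (Vtn), an adhesive glycoprotein of plasma and matrix, was at 6.43, 8.45 and 9.32 FPKM in DEX-24h and 35.02, 52.8 and 25.1 FPKM in the Sham-24h rats, again without overlap (log2 fold change -2.19, SE 0.26, adjusted p = 7.11e-05). Col6a6, a chain of collagen VI, fell from 1.08 ± 0.4 to 0.053 ± 0.0058 FPKM and Sfrp2, a secreted antagonist of WNT, from 4.91 ± 3.74 to 0.367 ± 0.189 FPKM (mean ± SD, n = 3).

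Other named genes fell as well. Art2b, a surface ADP-ribosyltransferase of rat T cells, was at 0.03, 0.06 and 0.04 FPKM in DEX-24h and 1.39, 0.99 and 1.13 FPKM in the Sham-24h rats (log2 fold change -4.63, SE 0.59, adjusted p = 0.000117). The lipid transporter Abca8a was even within each group, at 3.86, 4.27 and 4.23 FPKM in DEX-24h and 13.1, 12.7 and 12.8 FPKM in the Sham-24h rats (log2 fold change -1.60, SE 0.19, adjusted p = 7.11e-05). The calcium sensor Vsnl1 (log2 fold change -3.03, SE 0.39, adjusted p = 0.000117), the actin regulator Evl (-1.41, SE 0.19, adjusted p = 0.000134) and Lrrn1 (-3.63, SE 0.49, adjusted p = 0.000154) were also lower in each treated rat than in each sham rat. The mast cell protease Mcpt2 (log2 fold change -5.09) and amelotin (Amtn, -5.87) were called in all fits that left out 1 rat. In contrast, Ngp, a neutrophil granule gene, and Prg2, the major basic protein of eosinophils, were by far highest in Sham-24h replicate 1: Ngp was at 2.41, 0.34 and 1.01 FPKM in DEX-24h and 113, 4.86 and 5.94 FPKM in the Sham-24h rats and Prg2 at 0.67, 0.36 and 0.30 FPKM in DEX-24h and 38.1, 0.91 and 1.29 FPKM in the Sham-24h rats. Without that rat the log2 fold changes went from -4.94 to -2.04 (adjusted p = 0.336) and from -4.81 to -1.25 (adjusted p = 0.746). Ngp was also not called without DEX-24h replicate 2 or 3, nor Prg2 without any of the DEX-24h rats. Klk6, a kallikrein protease (-4.09), was called only without Sham-24h replicate 2 or 3 and was at -4.69 to -3.10 in the other fits, and Fcer2, the low-affinity IgE receptor of B cells (-3.71), was not called in 3 fits, with -3.11, adjusted p = 0.0578, without DEX-24h replicate 1; -3.61, adjusted p = 0.0514, without DEX-24h replicate 2; -2.94, adjusted p = 0.0833, without Sham-24h replicate 1.

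**Figure D2:**
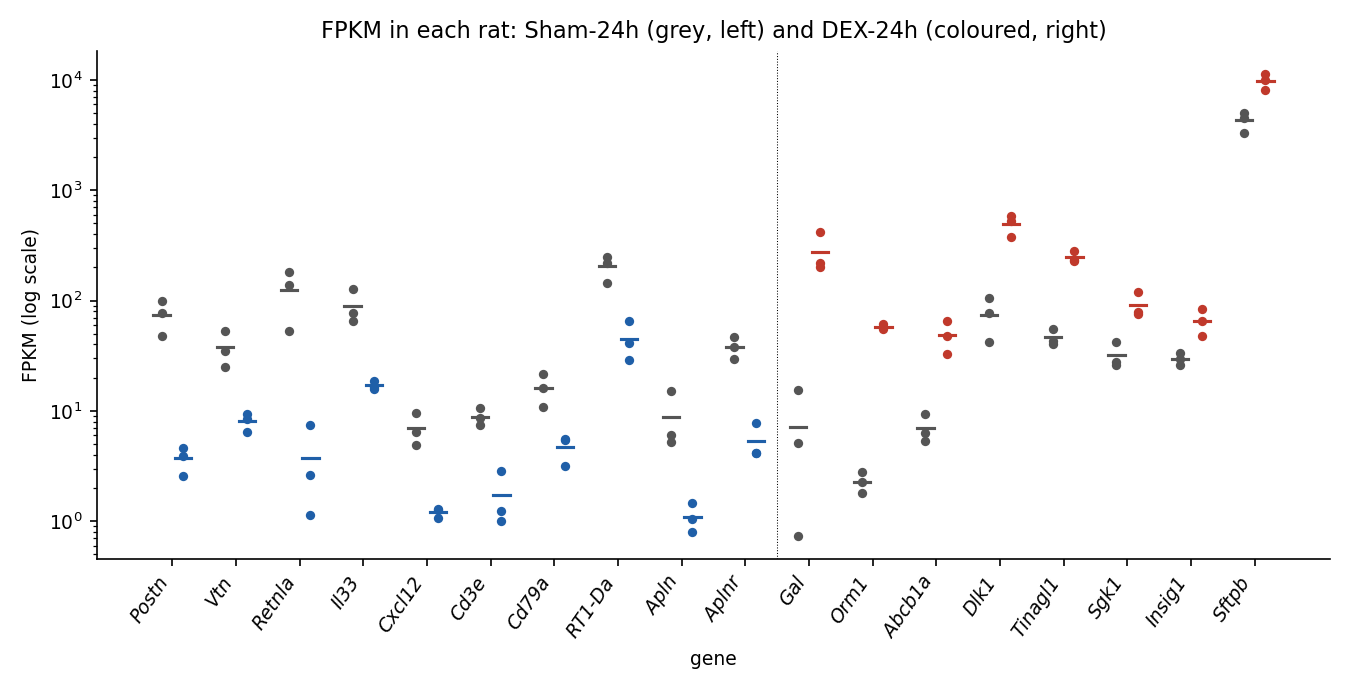
FPKM on a log axis for 18 genes named in the text, with 1 point per rat and a bar at the mean of 3 rats, Sham-24h in grey on the left and DEX-24h in colour on the right of each gene. In all 18 genes the 3 DEX-24h rats lie wholly below (blue) or wholly above (red) the 3 Sham-24h rats, which was a condition for most of the genes when they were chosen.

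Transcripts of T cells were lower in DEX-24h almost throughout. Of 24 T-cell genes tested, 20 fell, beside 3.16% of all genes, and the log2 fold change of all 24 was below 0, with a median of -2.29 against -0.01 for all genes. Cd3d, a signalling chain of the T-cell receptor complex, was at 1.90, 1.05 and 1.13 FPKM in DEX-24h and 11.4, 9.03 and 5.68 FPKM in the Sham-24h rats (log2 fold change -2.62, SE 0.49, adjusted p = 0.00214). Its partner Cd3e was at 2.87, 1.01 and 1.25 FPKM in DEX-24h and 10.6, 8.68 and 7.41 FPKM in the Sham-24h rats (log2 fold change -2.33, SE 0.51, adjusted p = 0.00685), and lost its call without DEX-24h replicate 3 (-2.11, adjusted p = 0.0559). The co-receptors of helper and cytotoxic T cells, Cd4 (log2 fold change -1.47) and Cd8a (-2.91), fell both. Cd4 was not called without DEX-24h replicate 1 (-1.30, adjusted p = 0.0588) or Sham-24h replicate 1 (-1.20, adjusted p = 0.0865), nor Cd8a without DEX-24h replicate 2 (-2.70, adjusted p = 0.0525) or DEX-24h replicate 3 (-2.69, adjusted p = 0.0685). Ccr7, the chemokine receptor of T cells and dendritic cells on their way to lymph nodes, fell most of the list (log2 fold change -3.50, SE 0.49, adjusted p = 0.00022), from 5.55, 3.35 and 3.55 FPKM in Sham-24h to 0.23, 0.29 and 0.55 FPKM in DEX-24h. The summed FPKM of the list was 35.8, 25.9 and 26.4 in DEX-24h and 148, 105 and 103 in Sham-24h, which do not overlap. In whole lung, fewer T cells and less of each transcript per cell cannot be told apart, and this holds for every cell type below. The count of 20 was 10 without DEX-24h replicate 3, 13 without Sham-24h replicate 1 and 14 to 19 in the other fits.

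Genes of B cells and plasma cells and of natural killer and cytotoxic cells moved the same way. Of 18 genes of B cells and plasma cells 10 fell, beside 3.16% of all genes, and all 18 were below 0 (median -1.77). Cd79a, part of the B-cell receptor, was at 5.60, 3.19 and 5.39 FPKM in DEX-24h and 21.6, 10.9 and 16.2 FPKM in the Sham-24h rats (log2 fold change -1.74, SE 0.40, adjusted p = 0.00961). Its call was lost without DEX-24h replicate 2 (-1.53, adjusted p = 0.0553) or Sham-24h replicate 1 (-1.48, adjusted p = 0.0666). The J chain of secreted antibodies (listed as Igj) was at 42.5, 23.5 and 25.4 FPKM in DEX-24h and 205, 183 and 110.1 FPKM in the Sham-24h rats (log2 fold change -2.41, SE 0.50, adjusted p = 0.00439). Igj was called in every fit that left out 1 rat, as was Bank1, a B-cell scaffold protein (-1.48, SE 0.25, adjusted p = 0.000745). Of the 13 natural killer and cytotoxic genes 7 fell, beside the same 3.16%, and all 13 were below 0 (median -2.19). Ctsw, a protease of cytotoxic lymphocytes, was at 0.76, 0.74 and 0.54 FPKM in DEX-24h and 9.38, 5.59 and 6.70 FPKM in the Sham-24h rats (log2 fold change -3.35, SE 0.68, adjusted p = 0.0038). For the killing proteins themselves the treated rats spread widely, with perforin (Prf1) at 7.94, 3.41 and 1.61 FPKM in DEX-24h and 24.5, 15.96 and 19.6 FPKM in the Sham-24h rats (log2 fold change -2.16, SE 0.63, adjusted p = 0.0395) and granzyme A (Gzma) at 7.60, 1.54 and 1.38 FPKM in DEX-24h and 22.6, 11.6 and 15.9 FPKM in the Sham-24h rats (-2.19, SE 0.87, adjusted p = 0.142). Prf1 was called only without DEX-24h replicate 1 or Sham-24h replicate 2, and was at -2.12 to -1.73 in the other fits (adjusted p = 0.0786 to 0.196). Both list counts changed with single rats. The B-cell count was 2 without DEX-24h replicate 2, 2 without Sham-24h replicate 1, 6 without DEX-24h replicate 1 and 8 to 10 otherwise. The cytotoxic count was 1 without DEX-24h replicate 2, DEX-24h replicate 3 or Sham-24h replicate 1, 3 without Sham-24h replicate 3 and 6 or 8 otherwise.

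**Figure D3:**
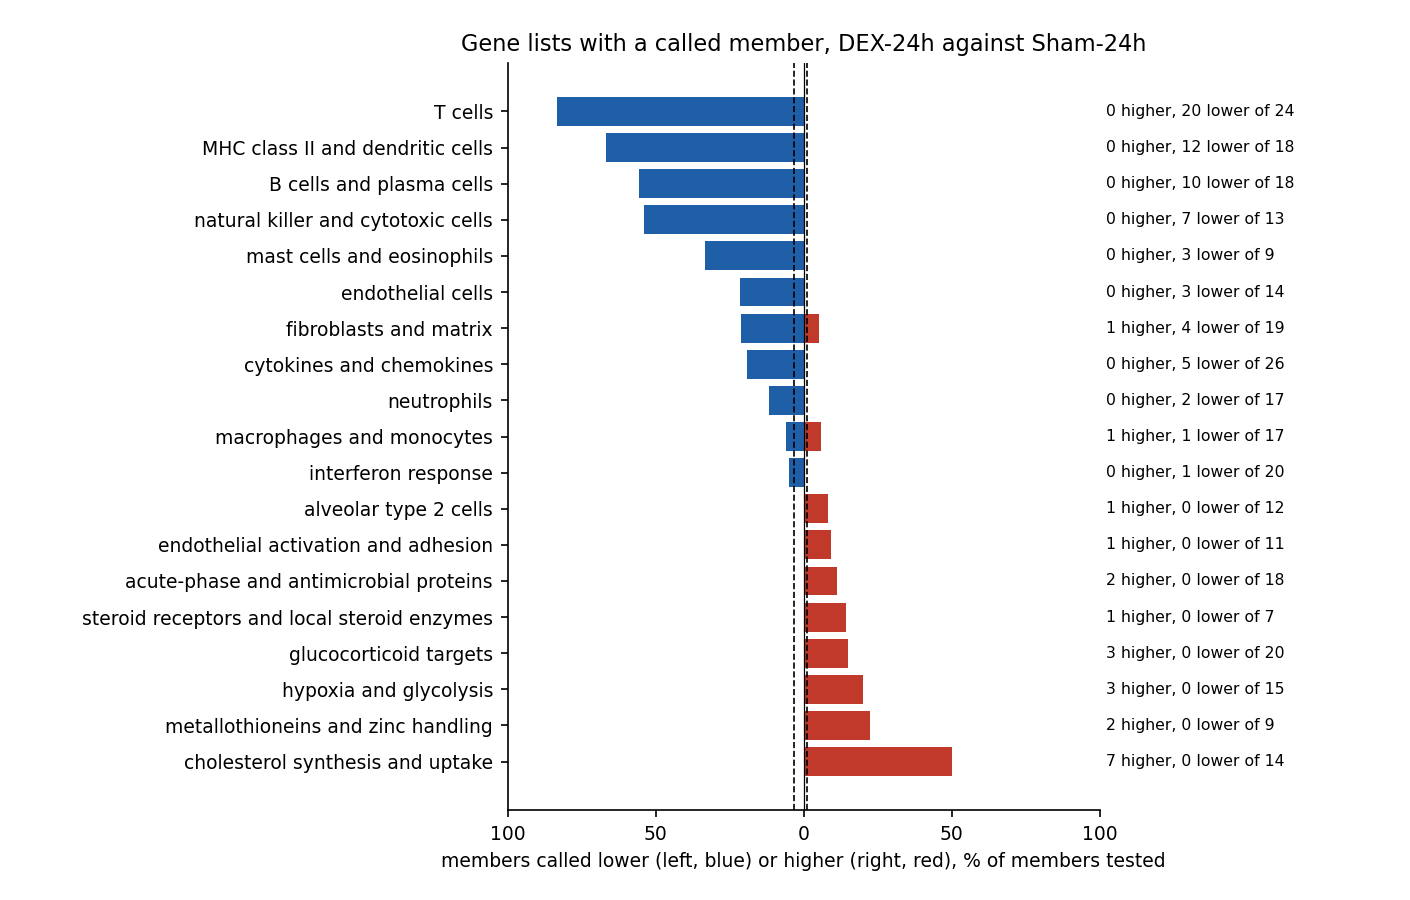
Bars give the share of tested members called lower (blue, to the left) or higher (red, to the right) in DEX-24h for the 19 lists with a called member, and the dashed lines give the shares over all genes tested, 3.16% and 0.992%. Counts are written at the right; T cells lead the lower lists with 20 of 24 and cholesterol synthesis and uptake leads the higher ones with 7 of 14.

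MHC class II molecules present peptides to helper T cells, and their genes share a conserved upstream block with an X box, bound by the RFX complex, and a CCAAT (Y) box, bound by NF-Y; the co-activator CIITA sits on both. Of 18 genes of MHC class II and dendritic cells 12 fell, beside 3.16% of all genes, and all 18 were below 0 (median -1.77). In the fits that left out 1 rat, 8 to 11 were called. Ciita itself was at 0.52, 0.66 and 1.16 FPKM in DEX-24h and 3.89, 1.75 and 2.52 FPKM in the Sham-24h rats (log2 fold change -1.76, SE 0.31, adjusted p = 0.00142). Cd74, the invariant chain that escorts class II molecules, was at 226, 349.6 and 491 FPKM in DEX-24h and 1446, 1367 and 938 FPKM in the Sham-24h rats (log2 fold change -1.78, SE 0.29, adjusted p = 0.000726). RT1-Da, a class II alpha chain, was at 28.8, 41.4 and 65.1 FPKM in DEX-24h and 250.01, 219 and 144 FPKM in the Sham-24h rats (log2 fold change -2.14, SE 0.35, adjusted p = 0.000718), and the beta chain RT1-Db1 at 8.45, 10.9 and 20.8 FPKM in DEX-24h and 76.02, 60.3 and 29.8 FPKM in the Sham-24h rats (log2 fold change -2.01, SE 0.38, adjusted p = 0.00247). In all 4 genes no treated rat reached a sham rat, and each was called in every fit that left out 1 rat. RT1-Ba and RT1-Bb, the chains of the other class II molecule, did not pass the test (log2 fold change -1.61, SE 0.66, adjusted p = 0.155, and -1.79, SE 0.73, adjusted p = 0.152). Class II genes resemble each other, and reads that fit several places were discarded by the authors, so the split between them is uncertain. The 250 bases upstream of the start of these 4 genes are given here because 2 of them carry the block in its textbook form; sequences are from RefSeq on build GRCr8, which is not the build of the deposited files, read 5′ to 3′ towards the gene, with the X box (CTAGCAAC, any base, then GATG) and the CCAAT box (CCAAT, or ATTGG on the other strand) in capitals.
RT1-Da (chr20:4515165-4515414, plus strand): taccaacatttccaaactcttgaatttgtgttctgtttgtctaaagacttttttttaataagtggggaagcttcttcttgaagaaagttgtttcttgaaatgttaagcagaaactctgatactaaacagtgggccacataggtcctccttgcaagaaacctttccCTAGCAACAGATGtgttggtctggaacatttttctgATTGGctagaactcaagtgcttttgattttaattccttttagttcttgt
RT1-Db1 (chr20:4560163-4560412, minus strand): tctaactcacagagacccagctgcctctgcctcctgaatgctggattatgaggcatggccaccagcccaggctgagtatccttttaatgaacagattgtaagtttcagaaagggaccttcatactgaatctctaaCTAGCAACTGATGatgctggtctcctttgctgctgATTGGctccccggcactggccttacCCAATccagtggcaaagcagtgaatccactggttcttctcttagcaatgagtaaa
RT1-Ba (chr20:4576807-4577056, plus strand): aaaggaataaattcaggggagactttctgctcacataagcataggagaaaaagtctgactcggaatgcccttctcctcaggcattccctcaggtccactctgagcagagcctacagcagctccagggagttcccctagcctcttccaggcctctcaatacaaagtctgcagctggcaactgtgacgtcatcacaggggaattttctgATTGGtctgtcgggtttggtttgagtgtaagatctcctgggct
RT1-Bb (chr20:4604119-4604368, minus strand): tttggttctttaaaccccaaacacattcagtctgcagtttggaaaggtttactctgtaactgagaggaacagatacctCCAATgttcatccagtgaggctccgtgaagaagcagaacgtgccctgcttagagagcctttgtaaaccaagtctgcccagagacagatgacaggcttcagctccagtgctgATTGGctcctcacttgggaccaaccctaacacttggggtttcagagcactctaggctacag

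With both strands searched, the X box was found in RT1-Da, starting 85 bases before the gene, and in RT1-Db1, 115 bases before it, with an ATTGG 23 and 22 bases downstream of it. These exact letters are in 4 of the 33469 upstream sequences of the same length (0.012%), whereas CCAAT is in 34.0% of them and so says little. RT1-Ba and RT1-Bb hold an ATTGG but not these letters of the X box, and Cd74, which was called lower, does not hold these letters either. Only this exact form was searched, so X boxes with other letters would be missed and their absence is not shown. Over the list, 2 of the 16 genes with a sequence hold the X box letters and 10 a CCAAT box, and nothing about the changes is read from this. Genes of dendritic cell subsets spanned a wider range than the class II genes. Xcr1, a receptor of cross-presenting dendritic cells, was at 0.01, 0.01 and 0.02 FPKM in DEX-24h and 0.97, 0.56 and 0.29 FPKM in the Sham-24h rats (log2 fold change -5.41, SE 0.93, adjusted p = 0.000979). Clec9a, found on the same cells, was at 0.19, 0.16 and 0.17 FPKM in DEX-24h and 1.54, 1.18 and 0.95 FPKM in the Sham-24h rats (log2 fold change -2.76, SE 0.48, adjusted p = 0.0011), and Siglech, of plasmacytoid dendritic cells, had a log2 fold change of -4.72, SE 1.03, adjusted p = 0.00606. Flt3, the growth factor receptor on which dendritic cells depend, fell less (-1.14, SE 0.24, adjusted p = 0.00477). Zbtb46 and Cd86, on the same list, were not called. Irf8, Ccl17, Ccl22 and Cd83 were called lower, but each lost its call in some fit that left out 1 rat.

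Of 9 mast cell and eosinophil genes 3 fell (33.3%, beside 3.16% of all genes), and the firmest was Cpa3, carboxypeptidase A of mast cells, at 0.84, 0.38 and 0.29 FPKM in DEX-24h and 5.66, 7.70 and 3.06 FPKM in the Sham-24h rats (log2 fold change -3.38, SE 0.54, adjusted p = 0.000686). Kit, which is also made by other lung cells, was higher in each treated rat but did not pass (0.82, SE 0.26, adjusted p = 0.0569). The count was 1 without DEX-24h replicate 1, DEX-24h replicate 3 or Sham-24h replicate 1. Of 17 macrophage and monocyte genes 1 fell (5.88%) and 1 rose, counts near the background. Cx3cr1, the fractalkine receptor of monocytes, fell (log2 fold change -3.24, SE 0.53, adjusted p = 0.000718; 0.43, 0.13 and 0.33 FPKM in DEX-24h and 4.56, 0.97 and 3.30 FPKM in Sham-24h). Marco, a scavenger receptor, had 44, 7 and 7 reads in DEX-24h and no read in any Sham-24h rat; its call was lost whichever rat was left out. The general macrophage genes Csf1r (-0.43, SE 0.20, adjusted p = 0.215), Cd68 (-0.43, SE 0.26, adjusted p = 0.393) and Mrc1 (0.25, SE 0.33, adjusted p = 0.777) were not called. Of 17 neutrophil genes 2 fell (11.8%), Ngp as above and the formyl peptide receptor Fpr2 (log2 fold change -5.24, SE 1.22, adjusted p = 0.00995; -4.74, adjusted p = 0.0625, without DEX-24h replicate 3). S100a8 and S100a9 had log2 fold changes of -0.66 and -0.92 that did not pass, and Sham-24h replicate 3 held the highest S100a8 value of all 6 rats. The summed FPKM of the neutrophil list was 2355, 1120 and 3079 in DEX-24h and 1535, 226 and 9436 in Sham-24h, so the groups overlap.

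Among 26 cytokine and chemokine genes, 5 fell, beside 3.16% of all genes, of which Cxcl12, Ccl21 and Ccl19 guide lymphocytes, and Il6, Il1b and Cxcl1 did not pass the test. Interleukin 33 (Il33), an alarmin stored in the nuclei of lung cells, was at 15.7, 16.6 and 18.7 FPKM in DEX-24h and 128, 65.5 and 76.9 FPKM in the Sham-24h rats (log2 fold change -2.35, SE 0.31, adjusted p = 0.000134). Cxcl12, which holds leukocytes in tissue through Cxcr4, was at 1.08, 1.29 and 1.26 FPKM in DEX-24h and 9.59, 6.42 and 4.95 FPKM in the Sham-24h rats (log2 fold change -2.48, SE 0.33, adjusted p = 0.000134). Ccl21, a Ccr7 ligand made by lymphatic vessels, was at 20.7, 28.9 and 45.2 FPKM in DEX-24h and 190.4, 137 and 97.9 FPKM in the Sham-24h rats (log2 fold change -2.12, SE 0.44, adjusted p = 0.00443). Cxcl14 and Ccl19, the other Ccr7 ligand, also fell (-1.75 and -3.25), but Cxcl14 was not called without DEX-24h replicate 3 or Sham-24h replicate 2 (-1.68 and -1.19) and Ccl19 was called only without Sham-24h replicate 2, at -3.52 to -2.22 in the other fits. The list count was 3 without DEX-24h replicate 3 and 4 in each other such fit. Il6 was at 0.05, 0.03 and 0.06 FPKM in DEX-24h and 0.11, 0.06 and 0.08 FPKM in the Sham-24h rats and Il1b at 28.4, 16.1 and 6.21 FPKM in DEX-24h and 30.2, 6.65 and 11.4 FPKM in the Sham-24h rats, with log2 fold changes of -0.85, SE 1.82, adjusted p = 0.874, and 0.14, SE 0.67, adjusted p = 0.953. Cxcl1, a neutrophil attractant, was at -0.08 (adjusted p = 0.965). Of 20 interferon response genes 1, Cxcl9, was called, a share near that of all genes (log2 fold change -3.32, SE 0.95, adjusted p = 0.0354), and it was not called without any of the DEX-24h rats or Sham-24h replicate 1; Mx1 was at 2.10, 1.29 and 1.17 FPKM in DEX-24h and 4.09, 18.5 and 2.84 FPKM in the Sham-24h rats, with Sham-24h replicate 2 far above the other rats (-2.45, SE 1.43, adjusted p = 0.369).

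In the vessel wall, both genes of the apelin pathway fell. Apelin (Apln) is a peptide ligand made by endothelial cells, and Aplnr is its receptor. Apln was at 1.04, 0.79 and 1.45 FPKM in DEX-24h and 15.2, 6.10 and 5.20 FPKM in the Sham-24h rats (log2 fold change -2.97, SE 0.48, adjusted p = 0.000695). Aplnr was at 4.14, 7.71 and 4.14 FPKM in DEX-24h and 47.01, 38.02 and 29.8 FPKM in the Sham-24h rats (log2 fold change -2.80, SE 0.41, adjusted p = 0.000304). Car4, a carbonic anhydrase on the surface of one class of lung capillary cells, was at 13.96, 21.8 and 11.01 FPKM in DEX-24h and 80.2, 53.5 and 48.9 FPKM in the Sham-24h rats (log2 fold change -1.91, SE 0.40, adjusted p = 0.00465). These were the 3 of 14 endothelial genes that fell, beside 3.16% of all genes, and all 3 were called in every fit that left out 1 rat. The defining endothelial genes Cdh5 (-0.32, SE 0.18, adjusted p = 0.356), Kdr (0.03, SE 0.23, adjusted p = 0.966) and Tek (0.31, SE 0.17, adjusted p = 0.305) were not called.

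Matrix genes changed unevenly. Of 19 fibroblast and matrix genes 4 fell and 1 rose, beside 3.16% and 0.992% of all genes (median -0.51). Besides Postn, the fibrillar collagen Col3a1 was at 46.5, 97.5 and 54.9 FPKM in DEX-24h and 232, 354 and 161 FPKM in the Sham-24h rats (log2 fold change -1.87, SE 0.48, adjusted p = 0.0177), with the treated values of replicate 2 nearest to sham. Lum, a proteoglycan of collagen fibrils, fell (-2.45, SE 0.54, adjusted p = 0.00696), as did Mfap4 (-5.91, SE 1.43, adjusted p = 0.0125) with 0, 0 and 1 reads in DEX-24h and 70, 11 and 3 reads in Sham-24h. Col3a1 was not called without DEX-24h replicate 1 or 3 or Sham-24h replicate 2 (-1.71 to -1.50), Lum not without DEX-24h replicate 3 (-2.22) and Mfap4 not without DEX-24h replicate 1 or 2 or Sham-24h replicate 1 (adjusted p = 0.0551 to 0.173), and the list count was 2 without DEX-24h replicate 1 or 3. Lox, the enzyme that cross-links collagen and elastin, rose instead, at 64.9, 66.3 and 71.8 FPKM in DEX-24h and 15.9, 29.6 and 33.8 FPKM in the Sham-24h rats (log2 fold change 1.39, SE 0.30, adjusted p = 0.00599). Col1a1 (-0.97, SE 0.52, adjusted p = 0.317) and Col4a1 (0.69, SE 0.21, adjusted p = 0.0456) did not pass the rule, the latter for size.

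The glucocorticoid targets, genes that the activated receptor is known to switch on, all had higher fitted levels than sham, but few single genes passed. Of 20 targets 3 rose, beside 0.992% of all genes, and all 20 log2 fold changes were above 0 (median 0.94). Sgk1, a kinase that controls sodium channels, was at 119, 79.01 and 75.6 FPKM in DEX-24h and 26.3, 42.4 and 28.03 FPKM in the Sham-24h rats (log2 fold change 1.53, SE 0.21, adjusted p = 0.000147). The groups did not overlap, and the call held in every fit that left out 1 rat. Dusp1, a phosphatase that turns off MAP kinases, was at 419, 335 and 369.6 FPKM in DEX-24h and 98.5, 159.8 and 152 FPKM in the Sham-24h rats (log2 fold change 1.48, SE 0.38, adjusted p = 0.019; not called without DEX-24h replicate 1 or Sham-24h replicate 1). Fkbp5, a chaperone that damps the receptor, was at 169, 177 and 157 FPKM in DEX-24h and 33.6, 109.8 and 39.9 FPKM in the Sham-24h rats (log2 fold change 1.48, SE 0.43, adjusted p = 0.039; called only without Sham-24h replicate 2, at 1.20 to 1.57 in the other fits). Sham-24h replicate 2 was the sham rat with the highest target genes, and Tsc22d3, the target known as GILZ, was at 374, 375 and 348 FPKM in DEX-24h and 172, 459 and 233 FPKM in the Sham-24h rats (0.37, SE 0.29, adjusted p = 0.544). Without that rat 10 of the 20 targets were called, whereas 1 was called without DEX-24h replicate 1 or Sham-24h replicate 1 and 2 or 3 without the others. Of 7 genes of steroid receptors and local steroid enzymes, only Sgk1, which is on both lists, was called. The receptor Nr3c1 was at 16.1, 13.98 and 13.1 FPKM in DEX-24h and 20.4, 17.3 and 18.5 FPKM in the Sham-24h rats (-0.34, SE 0.12, adjusted p = 0.0977), and Hsd11b1, which makes active corticosterone in tissue, at 52.0, 49.7 and 56.1 FPKM in DEX-24h and 50.7, 56.2 and 37.2 FPKM in the Sham-24h rats (0.17, SE 0.25, adjusted p = 0.797).

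Cholesterol synthesis was the list with the largest share of higher genes. Of 14 genes 7 rose, beside 0.992% of all genes, and all 14 were above 0 (median 1.00). Without the 2-fold minimum 12 of 14 passed, beside 431 of all 15934 genes tested that were then called higher. The pathway runs from acetyl-CoA through Hmgcs1 to isoprenoids (Idi1, Fdps) and on through Sqle, Cyp51 and Msmo1 to cholesterol. Hmgcs1 was at 15.5, 14.6 and 25.3 FPKM in DEX-24h and 9.88, 8.16 and 10.04 FPKM in the Sham-24h rats (log2 fold change 1.02, SE 0.21, adjusted p = 0.00369). Msmo1 was at 30.7, 27.8 and 41.2 FPKM in DEX-24h and 18.1, 16.1 and 16.5 FPKM in the Sham-24h rats (log2 fold change 1.01, SE 0.14, adjusted p = 0.000255). Cyp51 was at 21.9, 20.1 and 32.4 FPKM in DEX-24h and 11.1, 9.33 and 13.1 FPKM in the Sham-24h rats (log2 fold change 1.19, SE 0.18, adjusted p = 0.000332). In each of them the highest value was that of DEX-24h replicate 3. Idi1 (1.31, SE 0.34, adjusted p = 0.0207) and Sqle (1.01, SE 0.21, adjusted p = 0.0038) rose as well, Idi1 with its call lost without DEX-24h replicate 3, Sham-24h replicate 1 or Sham-24h replicate 2 (adjusted p = 0.0511 to 0.104). Insig1, the sterol-sensing brake of the pathway, was at 64.8, 47.4 and 84.6 FPKM in DEX-24h and 33.6, 26.0 and 29.8 FPKM in the Sham-24h rats (log2 fold change 1.18, SE 0.17, adjusted p = 0.000332). Fdps passed the p threshold but just missed 2-fold (0.99, SE 0.14, adjusted p = 0.000309). The changes lie close to the 2-fold limit, and the count moved with single rats. Without DEX-24h replicate 3 all 7 lost their call. Msmo1 at 0.87 (adjusted p = 0.00233) and Insig1 at 0.99 (adjusted p = 0.00286), for example, missed 2-fold there. Idi1 at 1.15 (adjusted p = 0.097) missed the p threshold instead. The count was 4 without Sham-24h replicate 2 and 10 without DEX-24h replicate 1. DESeq2 called 8.

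Single members of further lists rose, beside 0.992% of all genes. Among 12 alveolar type 2 genes Sftpb, a surfactant protein, rose at a very high level, from 5049, 4564 and 3313 FPKM in Sham-24h to 8150, 9931 and 11371 FPKM in DEX-24h (log2 fold change 1.23, SE 0.24, adjusted p = 0.00281), while Sftpc (-0.37, SE 0.21, adjusted p = 0.365) and Sftpa1 (0.22, SE 0.25, adjusted p = 0.709) did not pass. Of 15 hypoxia and glycolysis genes 3 rose. The vasodilator peptide adrenomedullin (Adm) was at 15.4, 20.97 and 24.8 FPKM in DEX-24h and 3.20, 7.32 and 3.41 FPKM in the Sham-24h rats (log2 fold change 2.16, SE 0.40, adjusted p = 0.00184), and Bnip3, a mitochondrial protein of mitophagy, at 116, 70.02 and 74.1 FPKM in DEX-24h and 36.04, 50.3 and 25.4 FPKM in the Sham-24h rats (log2 fold change 1.26, SE 0.27, adjusted p = 0.0064). Pfkfb3, which drives glycolysis, rose too (1.10, SE 0.27, adjusted p = 0.0147; 1.07, adjusted p = 0.0732, without Sham-24h replicate 1 and 0.95, adjusted p = 0.0703, without Sham-24h replicate 3). The glycolytic enzymes Ldha (-0.18) and Pgk1 (-0.13) were not called. Of 9 metallothionein and zinc genes the zinc transporters Slc30a2 (2.02, SE 0.48, adjusted p = 0.0108) and Slc39a8 (1.31, SE 0.37, adjusted p = 0.0316) rose, but both lost their call without DEX-24h replicate 1, Sham-24h replicate 1 or Sham-24h replicate 3, and Slc39a8 also without DEX-24h replicate 3 or Sham-24h replicate 2. Mt1 and Mt2A did not overlap between groups yet did not pass (1.13, SE 0.60, adjusted p = 0.313, and 2.39, SE 1.01, adjusted p = 0.172). Of 18 acute-phase and antimicrobial genes Orm1 and A2m rose, and Lcn2 was at 485, 594 and 1839 FPKM in DEX-24h and 512, 209 and 238 FPKM in the Sham-24h rats (1.65, SE 0.91, adjusted p = 0.335).

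For 15 of the 34 lists, with 198 genes in all, edgeR called no member. They were alveolar type 1, club and ciliated cells, keratins, matrix proteases, cell proliferation, the circadian clock, fluid clearance channels, fasting and lipid use, heat shock chaperones, the unfolded protein response, NRF2 targets, platelets, red blood cells and heart muscle. At an unadjusted p under 0.05 and 2-fold, 1 of the 198 was higher and 2 were lower, and DESeq2 called 1 lower. Their list medians lay between -0.46 and 0.46. The alveolar type 1 gene Ager was at 785, 1275 and 997 FPKM in DEX-24h and 1125, 1361 and 974 FPKM in the Sham-24h rats (-0.14, SE 0.33, adjusted p = 0.889), and the sodium channel subunit Scnn1a at 150.4, 176 and 226 FPKM in DEX-24h and 136, 148 and 136 FPKM in the Sham-24h rats (0.43, SE 0.19, adjusted p = 0.199). The proliferation gene Mki67 was at 0.72, 0.41 and 0.31 FPKM in DEX-24h and 1.05, 0.89 and 0.52 FPKM in the Sham-24h rats (-0.73, SE 0.53, adjusted p = 0.503). In simulated counts of these libraries a 4-fold change was called for 85 of 100 genes and a 2-fold change for 25 of 100 (49 without the fold minimum), so a missing call does not show that a 2-fold change is absent.

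Of the 370 genes tested that the deposited table annotates as lincRNAs, 4 were higher (1.08%, beside 0.992% of all genes) and 7 lower (1.89%, beside 3.16%); transcripts outside that annotation were not analysed here. Among those called with at least 0.5 FPKM on average in a group and no overlap between the groups, the 3 with the smallest adjusted p in each direction carry clone names. AABR07004868.2 was at 12.4, 12.2 and 14.04 FPKM in DEX-24h and 1.17, 2.30 and 2.36 FPKM in the Sham-24h rats (log2 fold change 2.75, SE 0.60, adjusted p = 0.00601). AABR07066529.3 (4.30, SE 0.98, adjusted p = 0.00841) and Rn60_X_0711.1 (1.45, SE 0.34, adjusted p = 0.0108) were also higher. AABR07035722.1 was at 2.17, 2.03 and 1.16 FPKM in DEX-24h and 7.32, 4.25 and 6.54 FPKM in the Sham-24h rats (log2 fold change -1.71, SE 0.38, adjusted p = 0.00685). Rn60_20_0066.11 (-1.85, SE 0.47, adjusted p = 0.0177) and AABR07014885.1 (-2.69, SE 0.74, adjusted p = 0.0294) were lower as well. None of the 6 was called in every fit that left out 1 rat. The call was lost for AABR07004868.2 and AABR07066529.3 without Sham-24h replicate 1 (2.50 and 3.80), for Rn60_X_0711.1 without DEX-24h replicate 2 (1.16) and for AABR07035722.1 without DEX-24h replicate 3 (-1.44). Rn60_20_0066.11 lost it in 3 fits, without DEX-24h replicate 2 or 3 or Sham-24h replicate 1 (-1.90 to -1.45), and AABR07014885.1 in 4, without DEX-24h replicate 1 or 2 or Sham-24h replicate 1 or 2 (-2.62 to -2.26).

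The untreated pancreatitis rats of SAP-24h were set beside the treated ones. SAP-24h was compared with the same 3 sham libraries, so the values are set side by side and nothing is inferred from their likeness; 796 genes (5.0%) were called there, 316 higher (1.98%) and 480 lower (3.01%), and 160 (1.0%) in Con-24h, 14 higher (0.0879%) and 146 lower (0.916%). Abcb1a was at 3.23, 3.69 and 3.51 FPKM in SAP-24h, below every DEX-24h rat, with a log2 fold change against sham of -0.88 where DEX-24h had 2.83. Sgk1 was at 21.3, 26.5 and 20.2 FPKM in SAP-24h (-0.39 against 1.53). Dlk1, in contrast, was at 325, 718 and 238 FPKM in SAP-24h and at 200.3, 357 and 479 FPKM in Con-24h, with log2 fold changes against sham of 2.63 and 2.20 beside 2.77 in DEX-24h. Orm1 was at 11.9, 15.5 and 24.5 FPKM (3.04 against 4.72), and Postn at 13.2, 12.6 and 22.2 FPKM (-2.10 against -4.29). For the lists, the medians in SAP-24h and DEX-24h were -1.39 and -2.29 for T cells, -0.37 and -1.77 for B cells and plasma cells, -0.48 and -1.77 for MHC class II and dendritic cells, and 0.35 and 1.00 for cholesterol genes. For the glucocorticoid targets the medians were 0.44 and 0.94, and 4 of 20 were called higher in SAP-24h beside 3 of 20 in DEX-24h. Their summed FPKM was 9991, 3334 and 3552 in SAP-24h, 3927, 3635 and 3767 in DEX-24h and 1386, 2900 and 1815 in Sham-24h, with SAP-24h replicate 1 far above all other rats and the other two SAP-24h rats below the DEX-24h rats. The class II list summed to 1031, 1433 and 1118 FPKM in SAP-24h, to 295, 452 and 620 FPKM in DEX-24h and to 1895, 1742 and 1243 FPKM in Sham-24h. The plot of summed levels shows immune lists, the cholesterol list and that of alveolar type 1 cells, but not the glucocorticoid targets, in all groups of 24 hours.

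**Figure D4:**
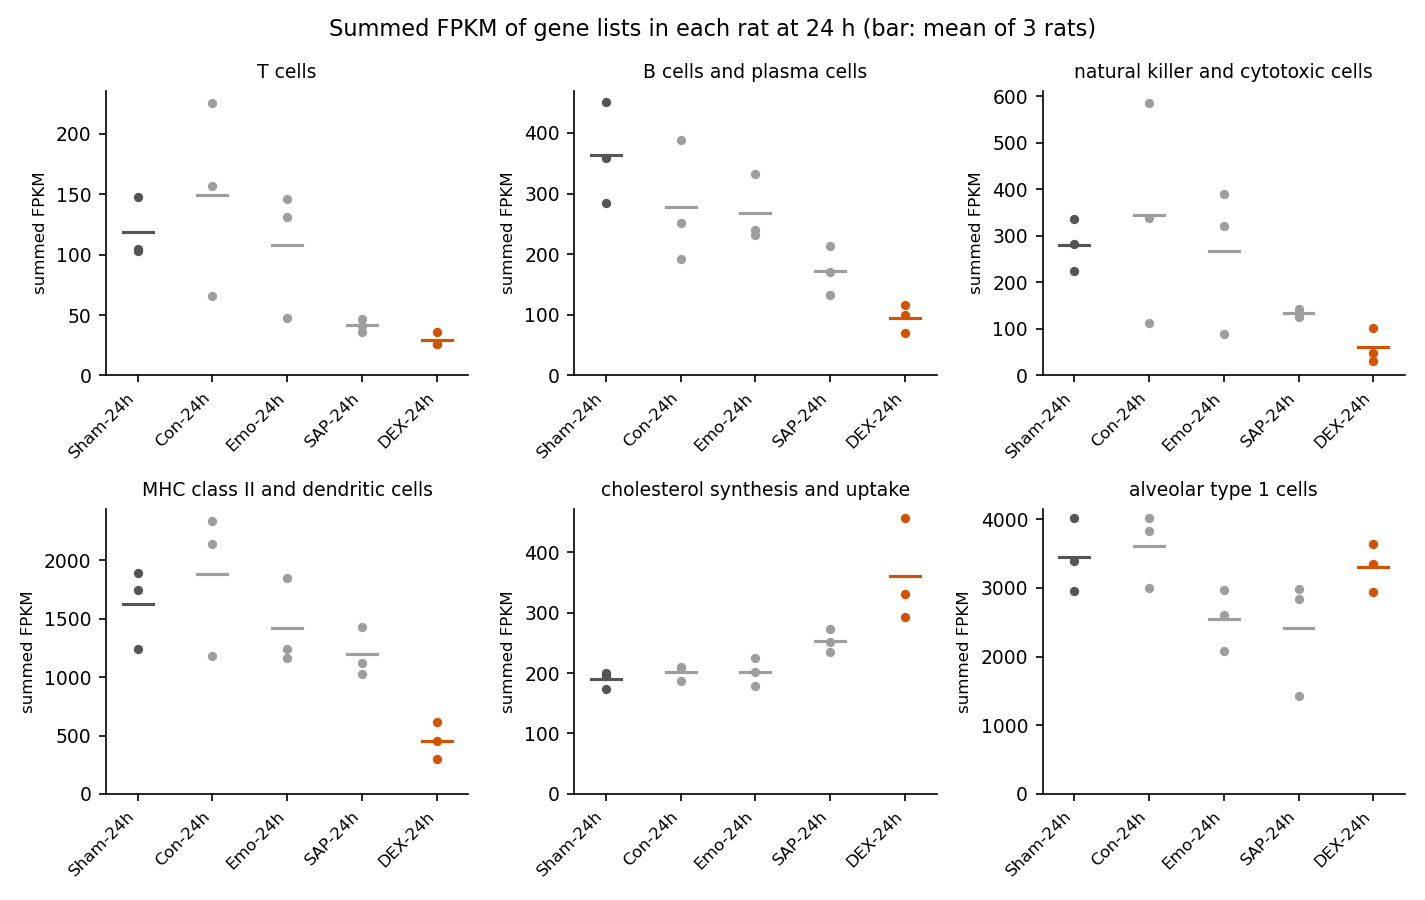
Summed FPKM of 6 gene lists (y axes from 0) in each rat of the 5 groups at 24 hours (x axis), with 1 point per rat and a bar at the mean of 3 rats. The DEX-24h rats (orange) are below every Sham-24h rat (dark grey) in the 4 immune lists and above them in the cholesterol list, and they overlap the sham rats in the list of alveolar type 1 cells.

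The comparison at 6 hours, DEX-6h against Sham-6h, uses other rats and shares no library with that at 24 hours. It called 633 genes (3.97%), 358 higher (2.25%) and 275 lower (1.73%), so that the excess of lower genes at 24 hours was not there at 6 hours. Of the 158 genes higher at 24 hours 54 were also higher at 6 hours, which is 34.2% of the genes higher at 24 hours and 15.1% of those higher at 6 hours. Of the 504 lower genes 82 were lower at both times (16.3% and 29.8%), and 1 gene of each direction was called the opposite way at 6 hours. With the genes called at both times included, 139 of the 158 higher genes (88.0%) and 444 of the 504 lower genes (88.1%) had the same sign at 6 hours, with medians of 0.82 and -0.65. Of those not called at 6 hours, 85 of 103 higher genes (82.5%) and 362 of 421 lower genes (86.0%) had it. The share with the same sign over all tested genes is not given beside these, so they are descriptions only. For the immune lists, which were not tested as lists, the median at 6 hours was -0.58 for T cells (1 of 24 lower), 0.14 for B cells and plasma cells (1 of 18 lower) and -0.63 for MHC class II and dendritic cells (2 of 18 lower). The natural killer list was at -1.59 (2 of 13 lower), and 12 of the 20 glucocorticoid targets were higher at 6 hours (median 1.10).

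The change between the times was tested as the log2 fold change at 24 hours minus that at 6 hours. It was called for 49 genes (0.308%), 33 lower (0.207%) and 16 higher (0.1%) at 24 hours; the count was 14 without Sham-24h replicate 2, 15 without DEX-24h replicate 1, 17 without DEX-24h replicate 3 or Sham-6h replicate 2, and 23 to 64 without each of the other rats. Of these genes, 24 of the 49 were among the 662 genes of the 24-hour comparison. Apln gave the smallest adjusted p (-5.52, SE 0.66, adjusted p = 0.00027). At 6 hours it was at 83.4, 113 and 53.7 FPKM in DEX-6h and 22.7, 12.2 and 9.64 FPKM in Sham-6h, so that it was above sham at 6 hours and below sham at 24 hours. Postn was at 37.97, 65.4 and 74.5 FPKM in DEX-6h and 90.6, 61.9 and 85.9 FPKM in Sham-6h, groups that overlap and were not called, against no overlap at 24 hours (difference -3.90, SE 0.57, adjusted p = 0.00408). Vtn (-2.30, SE 0.36, adjusted p = 0.00681) and Abca8a (-1.56, SE 0.26, adjusted p = 0.00762), not called at 6 hours either, also differed between the times. Insig1, given next, lost its call in the difference without DEX-24h replicate 3 (1.13), Sham-24h replicate 2 (1.24), DEX-6h replicate 1 (1.20) or Sham-6h replicate 2 (1.26). Of the 14 cholesterol genes 3 were called in the difference, Msmo1 (1.19, SE 0.20, adjusted p = 0.00814), Insig1 (1.31, SE 0.24, adjusted p = 0.0182) and Cyp51 (1.14, SE 0.25, adjusted p = 0.0417, named after its value was seen), and the list median was -0.02 at 6 hours. Sox18, a transcription factor of vessel endothelium, was the reverse case: it was at 19.1, 21.7 and 23.9 FPKM in DEX-6h and 94.9, 92.8 and 98.7 FPKM in Sham-6h, and at 96.8, 85.5 and 81.2 FPKM in DEX-24h and 109, 73.1 and 82.5 FPKM in the Sham-24h rats (difference 2.15, SE 0.34, adjusted p = 0.00681).

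**Figure D5:**
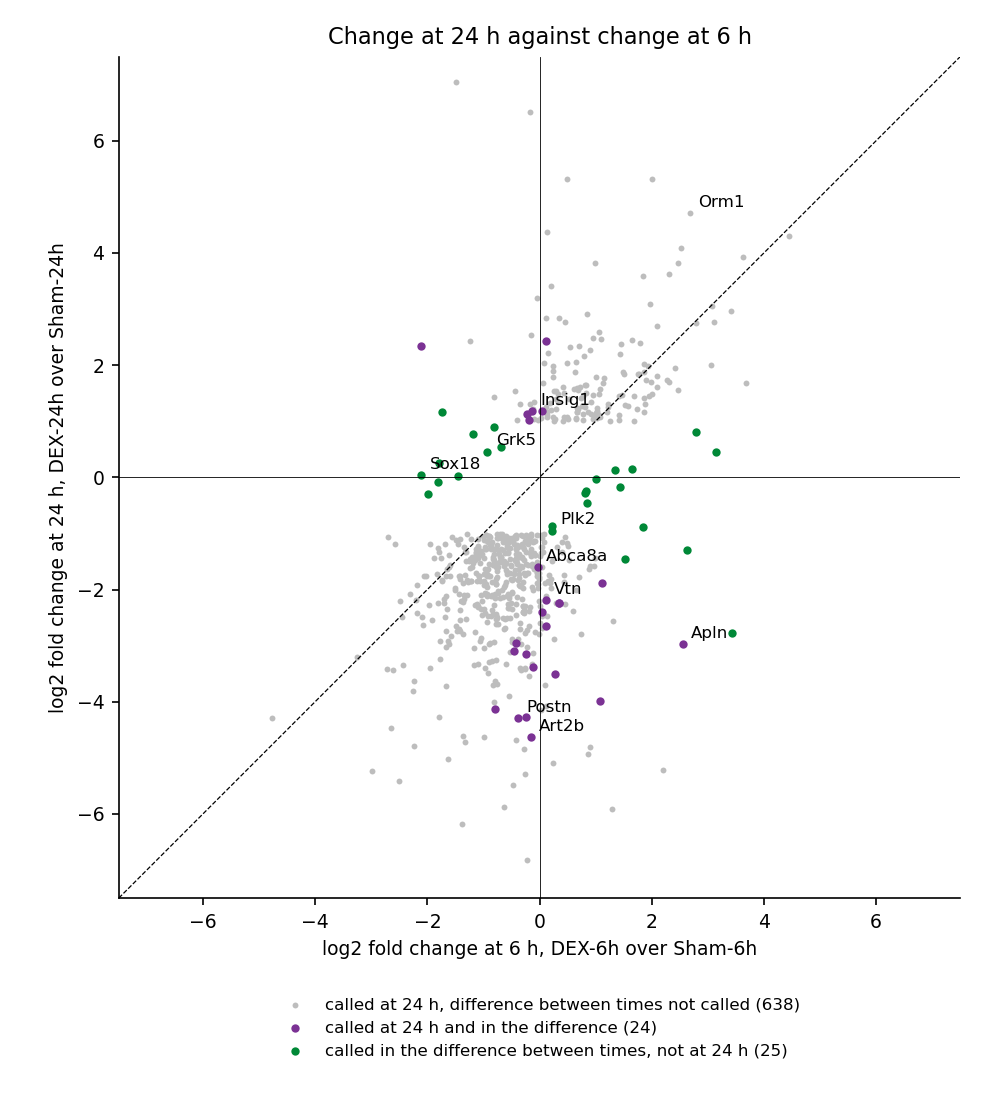
Log2 fold change of DEX over Sham at 6 hours (x axis) and at 24 hours (y axis) for the 662 genes called at 24 hours and the genes called in the difference between the times; the dashed line marks equal change. Purple marks 24 genes called at 24 hours and in the difference, green 25 called in the difference but not at 24 hours, and Apln lies at 2.55 on the x axis and -2.97 on the y axis.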

How the data were processed

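Lungs of 30 rats in 10 groups were sequenced as paired reads from directional oligo(dT) libraries, and 6 libraries enter the comparison here. The authors clipped adaptors and low-quality ends with FASTX-Toolkit, ran TopHat2 against Ensembl's version 6 rat genome (up to 2 mismatches), discarded reads that mapped to several places and deposited the number of uniquely mapped reads per gene; the counting program is not given in the sources used here. The FPKM values were deposited by the authors beside these counts and were used for levels only. The submitters' processing notes also name bcl2fastq and edgeR.

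The deposited counts were fitted with edgeR 4.0.16 (R 4.3.3) after filterByExpr (minimum count 10, minimum total 15) and TMM scaling, with 1 quasi-likelihood fit to all 10 groups (30 libraries, 20 residual degrees of freedom), and p was adjusted by Benjamini-Hochberg over the 15934 genes tested. The SE is the log2 fold change divided by the root of its F statistic. Calls needed an adjusted p below 0.05 together with a change of 2-fold or more. The change between times was the contrast of the 2 differences. Genes named by size or p were protein-coding, carried no clone name and had at least 1 FPKM in a group on average. They were the 12 largest changes per direction, the 8 smallest adjusted p and the 5 smallest for the change between times. The 12 and the 8 also had no overlap between the groups, which was not asked of the 5. Per direction, 3 lncRNAs of at least 0.5 FPKM and without overlap were named as well, with clone names allowed. Members of 34 lists were also named as examples, and list examples were picked after their values were seen. The comparison, lists and rules were chosen with earlier results of these data known. The replicate numbers were not taken as pairing the rats. Deviations from the group means had correlations of 0.0307, 0.305 and 0.0211 for same-numbered rats and of -0.205 to 0.164 for the others. With 3 rats a group this cannot settle whether the numbers pair them. Some members of the lists are not reported here. The scripts were tested on simulated data of 15768 genes. Alternatives were DESeq2 1.42.0, limma 3.58.1 on log2 of the deposited FPKM plus 1 or 0.1, other filters, scalings, models and thresholds, and each rat left out. Tables and plots used Python 3.11.15, pandas 2.3.3, numpy 2.4.6 and matplotlib 3.10.9.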

Additional observations from a re-analysis of the deposited data

Results flagged for a closer look

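The difference between DEX and Sham changed from 6 to 24 hours for 49 genes, tested as the log2 fold change at 24 hours minus that at 6 hours. The 5 genes of each direction with the smallest p are given here, and Ccr7 and Art2b, which tie with Abca8a and Plk2 in adjusted p. Apln, the apelin peptide of endothelium, differed by -5.52, SE 0.66, adjusted p = 0.00027, Postn by -3.90, SE 0.57, adjusted p = 0.00408 and Vtn by -2.30, SE 0.36, adjusted p = 0.00681. Abca8a differed by -1.56, SE 0.26, adjusted p = 0.00762, with 6.43, 7.21 and 7.69 FPKM in DEX-6h and 6.83, 7.77 and 7.91 FPKM in Sham-6h. Ccr7 differed by -3.77, SE 0.63, adjusted p = 0.00762, and Art2b by -4.47, SE 0.75, adjusted p = 0.00762. Plk2, a stress-responsive kinase, differed by -1.17, SE 0.19, adjusted p = 0.00762; it was at 19.2, 14.3 and 15.8 FPKM in DEX-6h and 12.9, 16.8 and 13.97 FPKM in Sham-6h, and at 9.60, 8.16 and 10.7 FPKM in DEX-24h and 20.03, 18.4 and 18.03 FPKM in the Sham-24h rats. In the other direction, Sox18 differed by 2.15, SE 0.34, adjusted p = 0.00681 and Grk5, a kinase that desensitises G-protein-coupled receptors, by 1.39, SE 0.22, adjusted p = 0.00681. Grk5 was at 12.8, 13.6 and 14.3 FPKM in DEX-6h and 29.02, 27.01 and 23.7 FPKM in Sham-6h, and at 39.2, 38.1 and 38.03 FPKM in DEX-24h and 27.2, 24.02 and 34.95 FPKM in the Sham-24h rats. Smad7, an inhibitor of TGF-beta signalling, differed by 1.23, SE 0.22, adjusted p = 0.0162, Msmo1 by 1.19, SE 0.20, adjusted p = 0.00814 and Insig1 by 1.31, SE 0.24, adjusted p = 0.0182. Insig1 was not called in the difference without DEX-24h replicate 3, Sham-24h replicate 2, DEX-6h replicate 1 or Sham-6h replicate 2, nor in a model of the 12 libraries alone. The rats at the 2 times were different animals, and the DEX-24h rats had received the second dose that the DEX-6h rats had not, so time and dose cannot be told apart.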

How the results depend on the processing

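The 662 genes called (158 higher, 504 lower) became 1215 (292 and 923) at an unadjusted p, 1111 (431 higher) with no fold minimum, 1135 (429 higher) with Con-24h as the reference, and 322 (216 lower) with limma-trend on FPKM plus 1. Other scalings, filters, models, DESeq2 and a pseudocount of 0.1 gave 502 to 819. Leaving out 1 rat gave 304 to 673 in all, 75 to 187 higher and 229 to 486 lower, and 14 to 64 instead of 49 for the change between the times. The replicate block gave 632 genes, and 51 for the change between the times, and whether the numbers pair the rats was not settled. None of the 43 genes named by the rules for the 24-hour comparison reversed under any alternative run here, and 31 (without Sham-24h replicate 1) to 43 of them stayed called. Of 252 list counts 205 stayed within 1.5 times. The causes were not tested. Of 100 simulated 2-fold changes 25 were called, and 49 without the fold minimum.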

Other observations

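Further gene families were looked at after their values had been seen, so their counts are descriptions; of all genes 3.16% were lower and 0.992% higher. Of 18 chemokine receptor genes 10 fell (median -1.89), among them Ccr9 (log2 fold change -3.71, SE 0.61, adjusted p = 0.000727) and Cxcr3 (-2.28, SE 0.52, adjusted p = 0.00906), which guide lymphocytes to tissues. Of the 10, 5 lost their call when some rat was left out, Cxcr3 without DEX-24h replicate 2 or Sham-24h replicate 1 (adjusted p = 0.0512 to 0.0563). Of 16 killer lectin-like receptor genes, the activating and inhibitory receptors of natural killer cells, 9 fell (median -2.04), including Klrc2 (-2.49, SE 0.50, adjusted p = 0.00369); these genes are near copies of each other and the split of reads between them is uncertain, and 6 of the 9 lost their call in some such fit. Of 9 mast cell protease genes 6 fell (median -2.97), with the same limit, and 4 of the 6 lost their call in some such fit. Of 28 integrin genes 5 fell (median -0.33), and 3 of the 5 lost their call in some such fit. The leukocyte integrins Itgb2 (-1.37, SE 0.21, adjusted p = 0.000506), Itgax (-1.72, SE 0.45, adjusted p = 0.0215), Itgal (-1.37, SE 0.34, adjusted p = 0.0147) and Itgae (-1.36, SE 0.28, adjusted p = 0.00441) were among them. Without DEX-24h replicate 2 or 3 or Sham-24h replicate 1, Itgax (-1.70 to -1.33) and Itgal (-1.33 to -1.08) were not called.

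Among matrix families, 3 of the 5 collagen VI chains fell, Col6a6 (-4.26, SE 0.60, adjusted p = 0.000246), Col6a5 (-3.14, SE 0.46, adjusted p = 0.000304) and Col6a4 (-2.78, SE 0.55, adjusted p = 0.00326), beside 6 of all 38 collagen genes; these 3 were called in every fit that left out 1 rat. Of 6 fibulins, glycoproteins of elastic fibres, 4 fell, of which 2 lost their call in some such fit. Fbln1 was at 4.03, 4.15 and 3.74 FPKM in DEX-24h and 22.7, 18.7 and 16.7 FPKM in the Sham-24h rats (-2.24, SE 0.36, adjusted p = 0.000686), and all treated rats were below all sham rats. Of 16 beta protocadherins, clustered cell adhesion genes of similar sequence, 6 were called lower (median of the 16 -1.34). They were at low levels, and 5 of the 6 lost their call in some such fit.

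Of 20 neuropeptide and granin genes 9 rose and 2 fell (median 1.19); 6 of the 9 and both of the lower ones lost their call in some such fit. Chga, a granin of neuroendocrine vesicles, was at 0.95, 0.84 and 0.62 FPKM in DEX-24h and 0.29, 0.05 and 0.14 FPKM in the Sham-24h rats (2.39, SE 0.63, adjusted p = 0.0223); it was called only without DEX-24h replicate 3 or Sham-24h replicate 1, and was at 1.98 to 2.37 in the other fits (adjusted p = 0.054 to 0.0925). Nucb2, the nesfatin precursor, was at 94.7, 89.7 and 135 FPKM in DEX-24h and 37.6, 47.8 and 43.6 FPKM in the Sham-24h rats (1.34, SE 0.26, adjusted p = 0.00256). Of 16 antagonists of BMP, WNT and activin 2 rose and 3 fell, and 1 of the 3 lost its call in some such fit. Follistatin (Fst), which binds activin, was at 41.9, 44.8 and 32.5 FPKM in DEX-24h and 9.18, 6.26 and 4.91 FPKM in the Sham-24h rats (2.60, SE 0.43, adjusted p = 0.000745), and Chrd was also higher (1.24, SE 0.28, adjusted p = 0.00691), whereas the lower genes included Sfrp2 (-3.70, SE 0.69, adjusted p = 0.00191) and Notum (-1.70, SE 0.36, adjusted p = 0.00556).

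In 5 called genes 1 group held no read at all. Besides Marco, SNORD113 had 19, 2 and 17 reads in DEX-24h and none in Sham-24h, at least 12.2-fold higher against a floor of 3 reads over the group. Ly49s2, with no read in DEX-24h, was at least 15.2-fold lower and was called in every fit that left out 1 rat. Ccr8 had 4, 5 and 6 reads in Sham-24h and none in DEX-24h (at least 5.2-fold lower), and was called only without Sham-24h replicate 2. Rag1, which recombines antigen receptor genes, had 24, 3 and 2 reads in Sham-24h and none in DEX-24h, most of them in replicate 1. Of the 6 fits, SNORD113 was called in 1 and Rag1 in 2.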
